A study of Mus musculus with 9 samples.

Results

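Resf1 and Setdb1 were followed through an RNA-seq experiment in which Resf1 was knocked down in mouse mammary tumor cells. They were chosen by identifier (ENSMUSG00000032712 and ENSMUSG00000015697) and were 2 of the 5301 genes listed in the expression table. The cells were 6DT1, a line from an MMTV-Myc mammary tumor that is syngeneic to FVB/NJ mice. The 3 groups of 3 libraries carried a scramble hairpin (shControl) or 1 of 2 lentiviral shRNAs against Resf1 (shH4 and shH6). All 3 lines were kept in puromycin at 10 µg/ml, and the cells were lysed 24 h after seeding. The study asked with these libraries how the transcriptome of the tumor cell differed after loss of Resf1. Each hairpin was represented by 1 transduced line seeded in 3 dishes, so the hairpin and the line cannot be told apart, and every SD and p-value below measured the spread between dishes.

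RESF1, the retroelement silencing factor, is a nuclear protein that binds SETDB1. SETDB1 is the histone methyltransferase that trimethylates lysine 9 of histone H3 (H3K9), and it represses endogenous retroviruses and other repeats in embryonic stem cells and in somatic cells. It is brought to its targets by TRIM28, which KRAB zinc finger proteins place on specific sequences, and by the HUSH complex with MORC2, and its partner ATF7IP keeps it in the nucleus. RNA from the retroelements themselves was not analysed here, and neither protein was measured.

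Resf1 lies on the forward strand of chromosome 6 (chr6:149309414-149335663, GRCm38, GENCODE M21) and has 11 annotated transcripts, 9 of them coding. Its longest coding transcript, Resf1-201, has 6066 bases in 5 exons, and 4380 of them are in exon 3, which holds most of the 4563 coding bases. Setdb1 lies on the reverse strand of chromosome 3 (chr3:95323525-95357202) and has 6 transcripts, 3 of them coding. Its longest coding transcript has 4658 bases in 22 exons, of which 3924 are coding. Resf1 thus carries nearly its whole reading frame in a single exon, whereas the Setdb1 reading frame is spread over many.

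The hairpins are shown with their sites because the position of each site decides which Resf1 transcripts it can reach. The hairpin lines are the antisense sequences given for the constructs, and the site lines are their exact matches in the Resf1 transcript, read from the GENCODE M21 transcripts. Capitals mark bases 2 to 8 of the antisense strand, the seed, and the bases that pair with it.
H4 hairpin: tTTCGATTtgtaacataggtc
H4 site in Resf1: gacctatgttacaAATCGAAa
H6 hairpin: aAACAACCaagttacctcagg
H6 site in Resf1: cctgaggtaacttGGTTGTTt

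The H4 site lay at chr6:149327436-149327456 (forward strand, GRCm38), in the coding part of exon 3, at bases 2565 to 2585 of Resf1-201. It was present in 5 of the 11 Resf1 transcripts. The H6 site lay at chr6:149335414-149335434, in the 3′ UTR in exon 5, at bases 5817 to 5837 and 229 bases from the end of the transcript. It was present in only 2 of the 11. H4 held 7 G or C bases in 21 and H6 held 9.

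**Figure D1:**
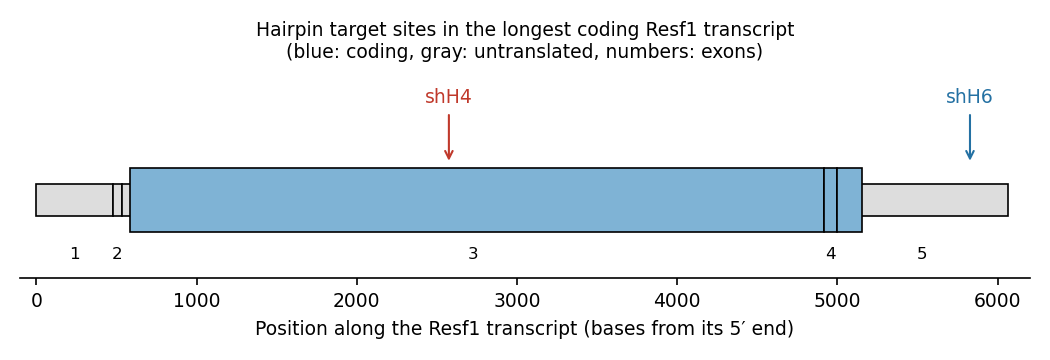
Map of Resf1-201 to scale in bases from the 5′ end, with coding sequence in blue, untranslated sequence in gray, exons numbered below and an arrow at each hairpin site. The H4 site is in the coding part of exon 3 and the H6 site in the 3′ UTR in exon 5.

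Neither hairpin sequence was close to a transcript of another gene. Among 141767 transcripts of 55450 genes, Resf1 was the only gene that matched either hairpin with 3 mismatches or fewer. In the 6 transcripts of Setdb1, the best match had 8 mismatches for both hairpins. The seed site of H4 (AATCGAA, on the transcript strand) was found in 4.98% of 21901 coding genes and that of H6 (GGTTGTT) in 15.3%, and neither was found in any Setdb1 transcript. In Resf1-201 the H6 seed site occurred 2 times and the H4 seed site 1 time. A seed match is a match of letters and was not tested as a site.

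The values were normalized read counts, that is, estimated reads per gene divided by a size factor per library. The libraries held 10.5 M to 19.9 M estimated reads in the listed genes, and each of the 9 replicate pairs differed beyond sampling noise (chi-square per gene 2.39 to 7.44). Every listed gene differed between the mean of both hairpins and shControl (100% at an adjusted p under 0.05, limma), so the table held genes selected for that difference and a call against shControl separated neither gene from the others. For the same reason, p-values and intervals against shControl are likely too favorable and are given as a description. Of 20 mammary epithelial markers 4 were listed, with a summed level of 27479.5 to 29706 in shControl, 23237 to 24869 with shH4 and 25756 to 28717 with shH6, led by the keratins Krt8 and Krt18. With shH4, 1 of these 4 rose and 3 fell, and with shH6, 1 rose and 1 fell (1 and 3 under upper quartile scaling), where 49.2% and 49.1% of all listed genes rose and 46.5% and 46.9% fell. The receptor gene Erbb3 fell by 1.13 and 1.26 on the log2 scale and Erbb2 rose by 0.35 and 0.33. Of 7 endothelial markers 2 were listed (Cdh5 and Pecam1), with a sum of 20.2 to 30.7 in shControl, 173 to 208 with shH4 and 26.01 to 31.2 with shH6. One of 9 leukocyte markers (Cd68) was at 608 to 668, 197 to 245 and 191 to 234, and 1 of 9 fibroblast markers (Pdgfra) was at 69.7 to 108, 119 to 162 and 128 to 157. None of the listed markers was at 0 in any library, those outside the table were not analysed here, and the part of these markers in the levels of Resf1 and Setdb1 was not tested.

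Resf1, the targeted gene, was lower in all 6 hairpin libraries and lowest with shH4. Its normalized read count was 1591, 1553 and 1610.0 in the 3 shControl libraries. It was 976, 953 and 1016 with shH4. It was 1120.0, 1113 and 1130.25 with shH6. The 3 groups did not overlap: each shH4 library was below each shH6 library, and each of those was below each shControl library. Non-overlap in this order of groups was found in 265 of the 5301 genes (5%), and 42.8% of the genes had all 6 hairpin libraries below all 3 shControl libraries.

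The group means of Resf1 were 1585 ± 29.3 in shControl, 982 ± 31.7 with shH4 and 1121 ± 8.88 with shH6 (SD, n = 3 libraries each). A library with shH4 kept 60.2% to 64.1% of the shControl mean, and a library with shH6 kept 70.2% to 71.3%. Both knockdowns were therefore partial at the level of total Resf1 reads. A lower count per cell and fewer cells expressing the gene cannot be told apart in these pooled cells.

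On the log2 scale Resf1 fell by 0.69 with shH4 (SE 0.043, 1.61-fold lower, limma adjusted p = 2.34e-09) and by 0.50 with shH6 (SE 0.043, 1.41-fold lower, adjusted p = 8.72e-08). In these comparisons 95.7% and 96.1% of the listed genes passed the same threshold, and 46.5% and 46.9% passed it downward. The difference between the hairpins was 0.19 (95% interval 0.10 to 0.28, shH6 higher by 1.14-fold, limma adjusted p = 0.00984). In that comparison 8.26% of the genes passed, and 3.89% passed with shH6 higher, while 11.4% had all shH6 libraries above all shH4 libraries. Endothelial Cdh5 and Pecam1 also differed between the hairpins, in the opposite direction. Pecam1 was low, at means of 4.76, 25.8 and 7.11 normalized counts in shControl, shH4 and shH6. Of the 4 listed epithelial markers, the keratin genes Krt8 and Krt18 differed in the same direction as Resf1, and 2 were not called.

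**Figure D2:**
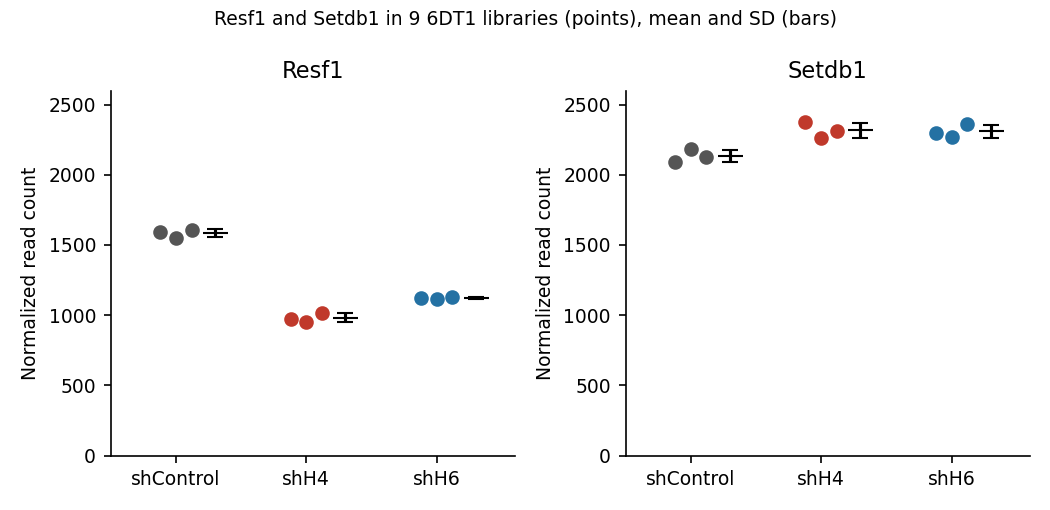
Normalized read count (y axis, from 0) of Resf1 and Setdb1 in each of the 9 libraries (points), by group, with the group mean (horizontal bar) and SD (error bar, n = 3). Resf1 forms 3 separate groups with shH4 lowest, and Setdb1 is slightly higher in all 6 hairpin libraries with shH4 and shH6 mixed.

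Setdb1 was slightly higher in all 6 hairpin libraries. Its normalized read count was 2092, 2182 and 2128 in the shControl libraries. It was 2373, 2262 and 2310.2 with shH4. It was 2296, 2267 and 2361 with shH6. The highest shControl library was below the lowest hairpin library, and the shH4 and shH6 libraries overlapped. All 6 hairpin libraries above all 3 shControl libraries was the case for 43.5% of the listed genes.

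The group means of Setdb1 were 2134 ± 45.2 in shControl, 2315 ± 55.7 with shH4 and 2308 ± 48.3 with shH6 (SD, n = 3), and hairpin libraries held 106% to 111% of the shControl mean. On the log2 scale Setdb1 was higher by 0.12 with shH4 (SE 0.038, 1.08-fold, 95% interval of the fold 1.03 to 1.15, limma adjusted p = 0.00815) and by 0.11 with shH6 (SE 0.038, 1.08-fold, 1.02 to 1.14, adjusted p = 0.00997). Upward calls were made for 49.2% and 49.1% of the listed genes, and these p-values and intervals come from a table selected for this difference. Between the hairpins Setdb1 differed by -0.0045 (95% interval -0.084 to 0.075, limma adjusted p = 0.967), an interval of 0.944 to 1.05 as a fold, whereas Resf1 differed between the same lines. The size and the call of the Setdb1 rise depended on the scaling of the libraries, and each other scaling used only the listed, selected genes. With libraries scaled to the column total the rise was 0.14 and 0.15 (limma adjusted p = 0.00313 and 0.00191). With libraries scaled to the upper quartile of the listed genes it was 0.056 and 0.061 (limma adjusted p = 0.161 and 0.129), and with median ratios over the listed genes 0.078 and 0.079 (adjusted p = 0.0586 and 0.055).

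**Figure D3:**
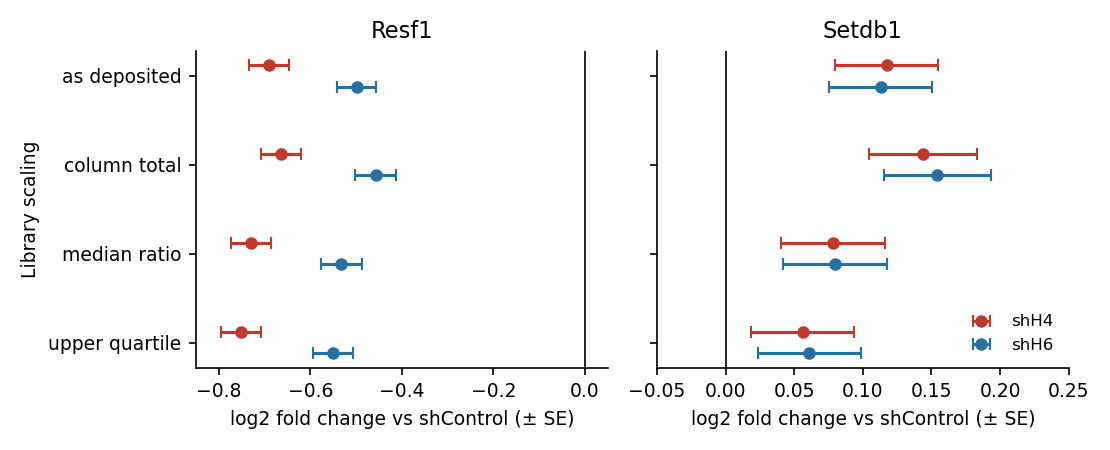
Log2 fold change against shControl (x axis, points, with SE bars) of Resf1 and Setdb1 for shH4 (red) and shH6 (blue) under 4 ways of scaling the libraries (y axis); the x axes of the 2 panels differ. Resf1 stays well below 0 under each scaling, whereas Setdb1 moves between 0.056 and 0.15.

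The spread between dishes was set beside the error of counting reads, which leaves out the effect of scaling on Setdb1 given above. Resf1 rested on 867 to 2329 estimated reads per library and Setdb1 on 1840 to 3062. The coefficient of variation between replicates of Resf1 was 1.85% in shControl, 3.23% with shH4 and 0.793% with shH6, where counting error alone gives 2.504%, 3.23% and 3.02%. For Setdb1 it was 2.12%, 2.404% and 2.09%, against 2.15%, 2.101% and 2.101% from counting. In these 2 genes the spread between dishes was thus about as large as counting error, or less, with 3 dishes per group. A table selected for a difference takes up genes of low spread more easily, so this does not describe the dishes in general. Over all listed genes, replicates differed beyond sampling noise (chi-square per gene 2.39 to 7.44). Counting error takes each read as independent, and reads had no molecular identifiers.

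The scaling of a library cancels in the ratio of Resf1 to Setdb1 within it. The ratio of normalized counts was 0.760, 0.712 and 0.756 in the shControl libraries. It was 0.411, 0.421 and 0.440 with shH4. It was 0.488, 0.491 and 0.479 with shH6. The groups again did not overlap, and shH4 was lowest. The means were 0.743 ± 0.027, 0.424 ± 0.014 and 0.486 ± 0.0063 (SD, n = 3). Over both hairpins the log2 ratio was lower by 0.71 (1.64-fold) than in shControl, and lower in 6 of 6 libraries, which the separate positions of Resf1 and Setdb1 given above already fix. The log2 ratio differed from shControl by -0.81 with shH4 and by -0.61 with shH6, and shH6 was above shH4 by 0.20. No p is given for the ratio, since both genes come from a table selected for this difference.

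Per kilobase of the longest coding transcript, the count of Setdb1 in shControl was above that of Resf1. The normalized count per kilobase was 261 ± 4.83 for Resf1 and 458 ± 9.69 for Setdb1 in shControl (SD, n = 3), a Setdb1 level 1.75 times that of Resf1. With shH4 the levels per kilobase were 162 ± 5.22 and 497 ± 11.95, a ratio of 3.07. With shH6 they were 185 ± 1.46 and 496 ± 10.4, a ratio of 2.68. By this measure Setdb1 was above Resf1 in every group, and the gap widened with both hairpins. The lengths are annotated ones, and which transcripts the cells used was not measured. Per kilobase of all exons of a gene together (9629 bases for Resf1 and 6853 for Setdb1), the ratios were 1.89, 3.31 and 2.89.

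Set among all listed genes, the fall of Resf1 was large but far from the largest, and the change of Setdb1 was among the smallest. With shH4, 333 of the 2589 genes that were lower in that comparison fell more than Resf1 (12.9%). With shH6, it was 623 of the 2589 genes lower in that comparison (24.1%). Of all 5301 genes, 9.19% and 17.8% had a larger change in either direction. Between the hairpins, 347 genes were higher in shH6 by more than Resf1. For Setdb1, 93.7% of the genes with shH4 and 94.5% with shH6 had a larger absolute change. The fall of the targeted gene was thus exceeded in its own comparison by many other genes. Which of those genes carry a seed site of the hairpins was not tested.

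**Figure D4:**
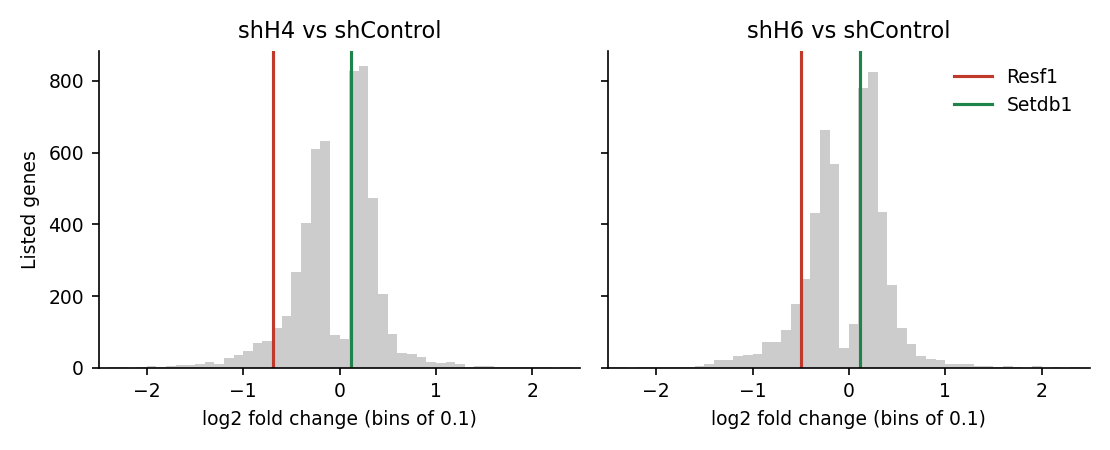
Number of listed genes (y axis) by log2 fold change against shControl (x axis, bins of 0.1), with Resf1 (red line) and Setdb1 (green line) marked, for shH4 (left) and shH6 (right). Few genes lie near 0 in this table of selected genes, and Setdb1 sits at the inner edge of the genes that rose.

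The other genes around SETDB1 that were listed were mostly higher with both hairpins. A list of 95 symbols of H3K9 methylation and retroelement silencing was written with earlier results of these data known, and 42 of them were in the table. Of these 42, 36 rose and 6 fell with shH4, with a median log2 change of 0.21. With shH6, 35 rose and 6 fell, Zfp37 did not pass the test, and the median was 0.23. Over all listed genes the medians were 0.096 and 0.088, and 49.2% and 49.1% rose. Under upper quartile scaling, 31 rose and 6 fell with each hairpin, beside 38.5% and 40.2% of all listed genes that rose. Several lists below lost upward calls under that scaling. The other 53 symbols were not analysed here, and the change of Setdb1 itself, at 0.12 and 0.11, was below the median of these 42 genes.

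Among the closest partners, Trim28, the corepressor that recruits SETDB1, was at 8628 ± 230.07 in shControl, 9545 ± 433 with shH4 and 9974 ± 312 with shH6 (normalized counts, SD, n = 3). Its log2 changes were 0.14 and 0.21 (limma adjusted p = 0.00261 and 0.000151). Setdb2, a relative of SETDB1, rose from 237 ± 16.03 to 293 ± 21.9 and 293 ± 14.1, by 0.30 and 0.31. These were the 2 listed of 4 symbols, and both changes were larger in value than those of Setdb1, a difference between genes that was not tested. Of 9 symbols around HUSH and MORC, 2 were listed: Morc2a, the ATPase that acts with HUSH, rose by 0.18 and 0.16, and the deacetylase Sirt1 rose by 0.38 and 0.38.

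Of the sequence readers, 4 of 11 were listed, and 4 rose with shH4 and 3 with shH6 (3 with each under upper quartile scaling). Of all listed genes 49.2% and 49.1% rose. Zfp568, a KRAB zinc finger protein, rose by 0.21 and 0.29 and Rif1, a chromatin protein of replication timing, by 0.17 and 0.19. Zfp37, another zinc finger gene, was at 191 ± 4.97 in shControl, 287 ± 11.2 with shH4 and 199.6 ± 11.0 with shH6. It rose by 0.58 with shH4 and was 0.061 above shControl with shH6 (limma adjusted p = 0.463). Its log2 difference between the hairpins (shH6 minus shH4) was -0.52 (limma adjusted p = 0.000659).

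Of the other H3K9 methyltransferases and their partners, 7 of 11 were listed, and 6 rose and 1 fell with each hairpin (5 rose with shH4 under upper quartile scaling). Suv39h1, which methylates H3K9 in pericentric heterochromatin, rose by 0.29 and 0.35. Ehmt1 and Ehmt2 form the enzyme of H3K9 dimethylation, and they went apart: Ehmt1 rose by 0.26 and 0.26, and Ehmt2 was the member that fell, by 0.13 and 0.13. A list of 9 symbols around readers of the mark was not limited to readers, with Pogz, Lbr and Ncoa6 among its members. All 6 that were listed rose (4 with shH4 and 5 with shH6 under upper quartile scaling), including the heterochromatin protein gene Cbx3 (0.17 and 0.17). Uhrf1, which recruits the maintenance DNA methyltransferase, rose by 0.44 and 0.53. Of all listed genes 49.2% and 49.1% rose and 46.5% and 46.9% fell (38.5% and 40.2% rose under upper quartile scaling). Of the H3K9 demethylases 3 of 11 were listed. Kdm3a rose by 0.26 and 0.22, while Kdm7a fell by 0.61 and 0.58 and Kdm4c by 0.27 and 0.36.

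In the DNA methylation list, 4 of 10 were in the table and 3 rose with each hairpin (2 with shH4 under upper quartile scaling). The maintenance enzyme Dnmt1 rose by 0.16 and 0.24 and the remodeler Hells by 0.41 and 0.45, and the de novo enzyme Dnmt3a fell by 0.25 and 0.25. Of 16 SUMO pathway symbols 5 were listed, 4 higher and 1 lower (Senp7) with each hairpin, or 2 higher with shH6 under upper quartile scaling, with the SUMO protease gene Senp1 higher by 0.38 and 0.44. Of 14 histone chaperones and deacetylase subunits 9 were listed, 8 higher and 1 lower with each hairpin (7 higher with shH6 under upper quartile scaling). Beside these 3 lists, 49.2% and 49.1% of all listed genes were higher and 46.5% and 46.9% lower with shH4 and shH6. Chaf1a, the large subunit of the replication-coupled chaperone CAF-1, rose by 0.31 and 0.34 and the H3.3 chaperone gene Hira by 0.44 and 0.47, and Daxx, another H3.3 chaperone gene, was the member that fell, by 0.15 and 0.17. Across the 42 genes, 2 differed between the hairpins: Zfp37, and the DNA demethylation enzyme gene Tet3, higher in shH6 by 0.26 (limma adjusted p = 0.0379). The Tet3 call was lost without shControl replicate 3 (0.26), any 1 of the 3 shH4 libraries (0.24 to 0.30) or shH6 replicate 3 (0.14). The other 40 did not pass that test, which Resf1 passed with 0.19.

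**Figure D5:**
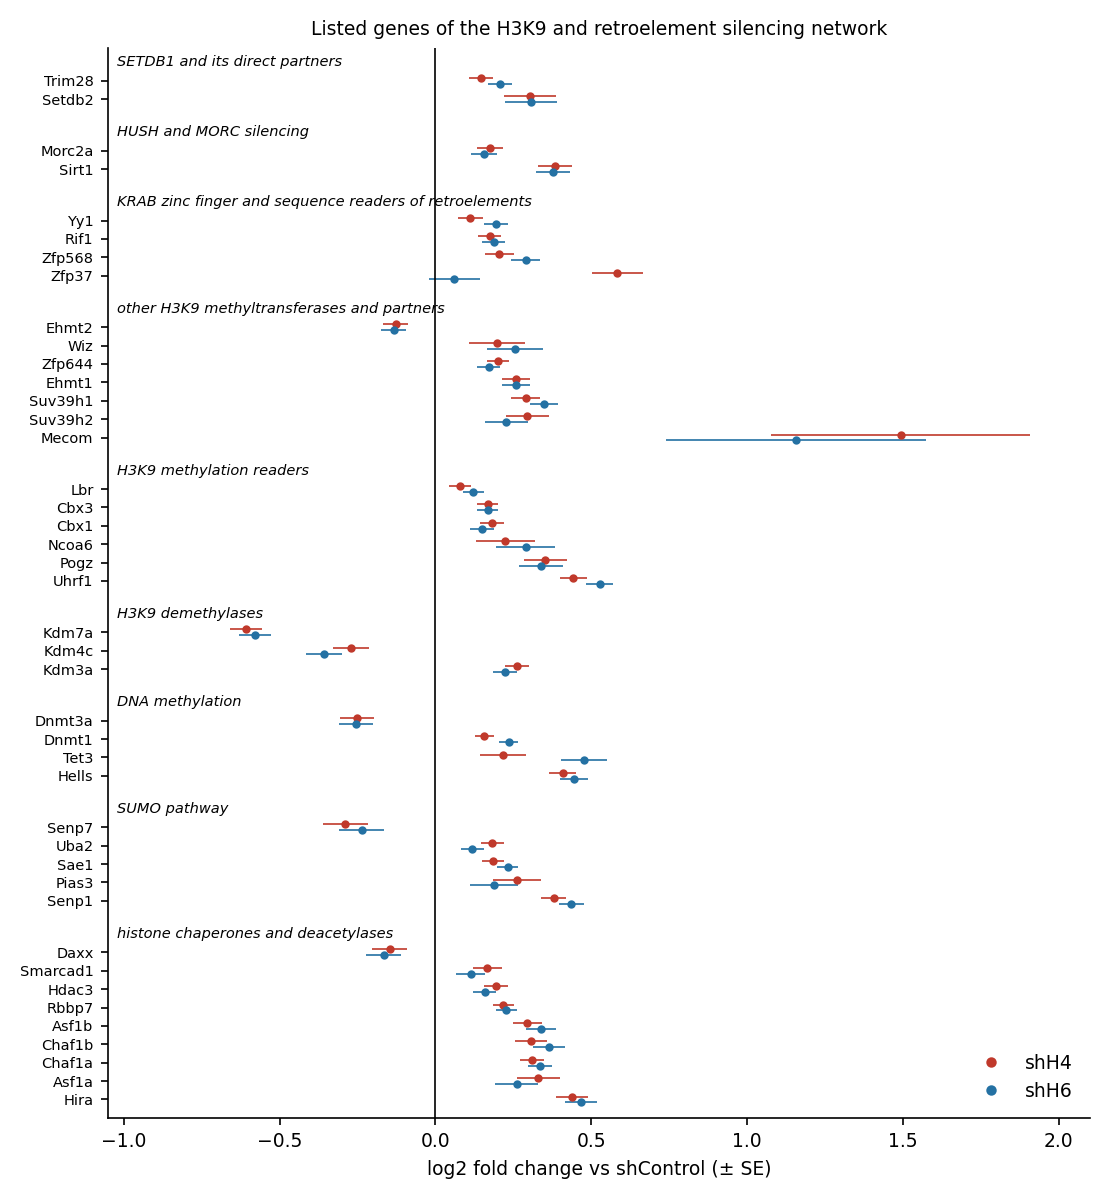
Log2 fold change against shControl (x axis, points, with SE bars) of the 42 listed genes of the silencing network with shH4 (red) and shH6 (blue), grouped by role (italic headings). Most points lie right of 0, between 0.061 and 0.58, with Mecom farthest right and the widest bars, and 6 genes lie left of 0 with both hairpins.

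Few genes near Resf1 or Setdb1 were listed, and nearly all listed genes were called (95.7% with shH4 and 96.1% with shH6, 46.5% and 46.9% of the genes downward), so the calls of neighbors are read as a description. Within 500 kb of Resf1, 2 of 8 annotated coding genes were listed, and both fell: Amn1 (120702 bases away) by 0.28 and 0.25, and Caprin2, an RNA-binding protein gene (413177 bases away), by 0.62 and 0.51. Unlike Resf1, neither passed the test between the hairpins (limma adjusted p = 0.846 and 0.586). Arntl2, Etfbkmt, Fgfr1op2 and Slco1a5, the other candidate genes of that region of chromosome 6, were not analysed here. Within 500 kb of Setdb1, 8 of 36 coding genes and 1 pseudogene were listed. With shH4 and shH6 in turn, Gabpb2 rose by 0.27 and 0.30, Rprd2 by 0.43 and 0.35, the heterochromatin protein partner gene Pogz by 0.35 and 0.34 and the splicing factor gene Prpf3 by 0.49 and 0.45. Rfx5 fell by 0.33 and 0.26, Selenbp1 by 1.32 and 0.69 and the pseudogene Rps10-ps1 by 0.24 and 0.25. Lysmd1 fell by 0.44 and 0.22 (limma adjusted p = 0.0499 with shH6, a call lost under 7 of 18 other settings).

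Cers2, a ceramide synthase gene, overlaps the span of Setdb1 by 75 bases on the opposite strand. The span also overlaps Gm37500 (1073 bases) and the pseudogene Gm42578 (194 bases) on that strand, which were not analysed here. Cers2 was at 3560 ± 96.6 in shControl, 3964 ± 176 with shH4 and 3750 ± 89.9 with shH6 (SD, n = 3), a log2 change of 0.15 and 0.075 (limma adjusted p = 0.00183 and 0.0728). Under column totals the shH6 change of Cers2 was 0.12 and was called (limma adjusted p = 0.0116). The library kit keeps the strand, but whether the counting used it was not given in the sources used here, so reads of these overlaps cannot be assigned with certainty to Setdb1.

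The genes whose pattern over the 9 libraries was most like that of each member were ranked by the root mean square difference of mean-centered log2 values, among 4802 genes with a mean of at least 100 normalized counts. For Resf1, whose own spread was 0.29, they included Gm3716 (0.047), the muscle enolase gene Eno3 (0.050), the purine catabolism gene Xdh (0.053) and the cyclin gene Ccnl2 (0.058). Eno3 was at 3803 ± 159, 2289 ± 125 and 2652 ± 83.8 in shControl, shH4 and shH6, the same order of groups as Resf1. For Setdb1, whose own spread was 0.060, they were Tnfaip1 (0.017), Nufip2 (0.018), Tbl1x, a subunit of a corepressor complex (0.018), Pdzd8 (0.020) and Cnot7, a deadenylase gene (0.021). Tbl1x was at 3027 ± 78.8, 3341 ± 66.6 and 3320 ± 25.8, slightly higher with both hairpins as Setdb1 was. These genes were chosen for their likeness, so their levels are a description, and the 9 libraries share 3 lines and their scaling.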

How the data were processed

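RNA-seq libraries (TruSeq Stranded Total RNA, RIN above 7) were made from 9 dishes of 6DT1 cells, 3 per group. The authors aligned reads with STAR 2.7.8a in Partek Flow, normalized by median ratio and tested with DESeq2. The submitters' processing notes name mm39. The annotation, the counter and its use of strand were not given in the sources used here. The values deposited by the authors were a signal for each gene, namely normalized counts and not raw counts: below 150 normalized counts, 72.1% to 77.0% of a library's values were whole multiples (within 0.02) of 1 over a constant, taken as the size factor (0.802 to 1.46). Because raw counts were not recovered, no count-based test was run. Reads were estimated as value times size factor.

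Of the 5301 identifiers, 5258 (99.2%) matched GENCODE M21 (GRCm38), which gave symbols, lengths and coordinates. All coordinates printed are from GRCm38, and hairpin sites came from matching the labels' hairpin sequences to its transcripts.

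The log2(value + 1) scale was used for limma 3.58.1 (R 4.3.3): a mean per group over all 9 libraries, empirical Bayes with a trend, Benjamini-Hochberg adjustment over 5301 genes, threshold 0.05, no filter. The shift understates folds of low genes. Exact permutation tests of Resf1, Setdb1 and their ratio were run, but complete separation of the groups in a table selected for it fixes their p, which is not given. Figures used matplotlib 3.10.9.

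The pair and the gene lists were chosen with earlier results of these data known, and list sizes count symbols, older synonyms included. Named genes were both members, every listed gene of the partner, HUSH and chromosome 6 lists, up to 3 genes with the smallest adjusted p (mean of both hairpins) from each other list, listed genes within 500 kb of a member, and the 5 most similar genes for each, 1 of which is not reported here. Krt8, Ehmt2, Dnmt3a, Senp7, Daxx and Mecom lie outside this rule and were named after their values were seen. Alternatives were 3 other scalings, pseudocounts of 0.5 and 10, keeping genes with 10 normalized counts throughout, fitting just the compared groups, library weights, the replicate number as a block, and leaving out each library.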

Additional observations from a re-analysis of the deposited data

Results flagged for a closer look

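Resf1 differed between its hairpins by 0.19 on the log2 scale (shH6 higher, limma adjusted p = 0.00984), with no overlap between the libraries of shH4 and shH6. It stayed past the threshold when any of the 9 libraries was left out (0.17 to 0.22, highest adjusted p = 0.0426).

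In the silencing network, Zfp37 differed between the hairpins by -0.52 and Tet3 by 0.26. The Tet3 difference depended on single libraries, as given above.

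Genes of other lists also differed between the lines: the imprinted gene Peg3 by -0.76, the keratin gene Krt18 by 0.25, and the endothelial markers Cdh5 by -2.86 and Pecam1 by -1.76 (shH6 minus shH4, limma adjusted p = 3.82e-06, 0.00209, 6.31e-07 and 0.00599). Krt8, the other listed keratin gene, was also called higher in shH6, and Pecam1 had low counts, as given above. Cdh5 was at 21.4 ± 6.26 in shControl, 163 ± 18.7 with shH4 and 21.8 ± 3.86 with shH6 (normalized counts, SD, n = 3), so the line with the lowest Resf1 was also the line with the highest Cdh5. Selenbp1, 378767 bases from Setdb1, differed by 0.63, a call that was lost without shH4 replicate 1 (0.52), shH4 replicate 3 (0.56) or shH6 replicate 2 (0.55). For all of these, the hairpin and the transduced line cannot be told apart. Differences between the hairpins were tested for all 5301 genes. Genes named for a pattern like that of a member were left out of these flagged results.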

How the results depend on the processing

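Over 18 other settings, 2541 of 2600 recomputed values for 145 results kept their direction and side of the threshold, 42 lost a call, 6 gained one, 3 counts moved by more than 1.5 times and 8 changed sign. Resf1 kept its calls throughout. When 1 library was left out it was -0.72 to -0.67 with shH4 and -0.51 to -0.49 with shH6, and the log2 ratio of Resf1 to Setdb1 was -0.74 to -0.68. Setdb1 lost its call under upper quartile scaling (0.056 and 0.061) and under median ratios over the listed genes (0.078 and 0.079), and kept it with any library left out (0.099 to 0.134 and 0.096 to 0.129). Its difference between the hairpins changed sign without passing the threshold under column totals (0.010), upper quartiles (0.0048) and median ratios (0.0012), and ran from -0.021 to 0.014 with 1 library left out (0.014 without shH4 replicate 1, 0.0084 without shH6 replicate 2). Cdh5 with shH6 against shControl, which was not called, became -0.17 with library weights, -0.21 without shControl replicate 2 and -0.085 without shH6 replicate 3, in a range of -0.21 to 0.19 with 1 library left out.

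Between the hairpins 438 genes were called, 684 with library weights, and 287 to 422 with 1 library left out, with 290 without shH4 replicate 1 and 287 without shH6 replicate 1. Under column totals 263 were higher and 191 lower in shH6, against 206 and 232 as deposited. The replicate numbers did not pair the libraries: correlations of deviations were -0.155 to 0.108 for the same number and -0.245 to 0.197 for different numbers. With the replicate block 5054, 5074 and 405 genes were called, and the calls of Resf1 and Setdb1 were kept (adjusted p of Resf1 1.08e-08, 2.62e-07 and 0.0143, of Setdb1 0.0126, 0.0152 and 0.969, limma).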

Other observations

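Genes that sense foreign nucleic acid, which can respond when retroelements are released, moved both ways in the cells with less Resf1. Of 17 symbols 7 were listed. With shH4, 2 rose and 5 fell, and with shH6, 2 rose and 4 fell (1 and 5 under upper quartile scaling), where 49.2% and 49.1% of all listed genes rose and 46.5% and 46.9% fell. Cgas, the sensor of DNA in the cytosol, was at 306 ± 6.98 in shControl, 421 ± 2.08 with shH4 and 453 ± 15.2 with shH6 (normalized counts, SD, n = 3) and rose by 0.46 and 0.56 on the log2 scale. The genes of 2 sensors of double-stranded RNA fell: Dhx58 by 0.81 and 1.06, and Ifih1 by 0.23 and 0.45 (limma adjusted p = 0.00542 and 2.38e-05).

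Among germline and imprinted genes, some of which are repressed by H3K9 methylation in other cells, 4 of 25 were listed, and 2 rose and 2 fell with each hairpin. Peg3 rose by 1.12 with shH4 and 0.36 with shH6, whereas Igf2r fell by 0.20 and 0.32 and Snrpn by 0.41 and 0.35. Of 58 clustered protocadherin symbols 2 were listed, and both passed the test upward with each hairpin, as 49.2% and 49.1% of all listed genes did. For shH6 those calls were lost without shH6 replicate 3 (0.15 for Pcdhgc3 and 0.27 for Pcdhgb6), without shControl replicate 1 (Pcdhgc3, 0.11) or without shControl replicate 2 (Pcdhgb6, 0.26). Of 11 pluripotency factors only Klf2 was listed, and it fell by 1.03 and 0.53, the second call being lost without shControl replicate 3 (-0.44) or shH6 replicate 3 (-0.40). These lists hold few listed members in a table of genes selected for a difference, and the rest were not analysed here.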
